A study of Homo sapiens with 8 samples.

Results

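The HOX cluster genes are the coding genes whose symbol is HOXA, HOXB, HOXC or HOXD followed by digits alone. They were picked by symbol, which leaves out antisense and other noncoding transcripts, and numbered 39 of the 58440 genes in the table. Read pairs per gene were counted in 8 stranded polyA RNA-seq libraries of HEK293, a human embryonic kidney cell line. The labels list 4 groups of 2 samples: cells stably overexpressing HTR1E after serotonin, control cells after serotonin, cells stably overexpressing HTR1E without added ligand, and control cells without added ligand. HTR1E is a serotonin receptor that couples to inhibitory G proteins. All cells were deprived of serum for 3 h, and the treated ones then received 1 µM serotonin for 1 h. The labels do not say whether the overexpressing line was 1 clone or a pool, what the control cells carried, or whether the 2 samples of a group came from separate cultures, so p-values measure the spread between these libraries, which may be technical.

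The columns of counts were named by the treatment, a first letter and, in some, a second letter. The treatment word gave the treatment. No label ties the first letter to a cell line. The 4 libraries whose names share the first letter with high HTR1E counts are called HTR1E-high here, and the 4 of the other letter HTR1E-low. HTR1E stood at 253 and 249 CPM (read counts scaled to library size) in the HTR1E-high libraries after serotonin, against 0.255 and 0.399 CPM, from 2 and 3 reads, in the HTR1E-low libraries. Without ligand it stood at 202 and 202 CPM in the HTR1E-high libraries, against 0 reads in both HTR1E-low libraries, which allows up to 1.15 and 0.359 CPM at 3 reads. This level names the 2 sets, so HTR1E was not tested.

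HOX genes encode homeodomain transcription factors that give body segments their identity. They lie in 4 clusters and are numbered by their likeness across clusters. Low-numbered genes sit at one end of a cluster and act toward the head, and high-numbered genes sit at the other end and act toward the tail. Polycomb proteins keep the clusters silent and Trithorax proteins keep them active, while retinoic acid, CDX proteins and growth factors open them in the embryo. The proteins bind DNA together with TALE cofactors of the PBX and MEIS families. Cultured lines keep a HOX pattern that reflects the tissue of origin. On hg38 the HOXA cluster (11 genes) spans chr7:27092993-27200106 on the minus strand, and the HOXB cluster (10 genes) chr17:48528526-48729178 on the minus strand. The HOXC cluster (9 genes) spans chr12:53938765-54056030 and the HOXD cluster (9 genes) chr2:176092891-176190907, both on the plus strand.

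Depth ranged from 5439082 to 9072278 counted pairs in the HTR1E-high libraries and from 2604885 to 8360400 in the HTR1E-low libraries. A pair of HTR1E-low libraries stood apart from the rest. The first, without ligand (replicate 1), had 2604885 counts, 43.9% of them from mitochondrial ribosomal RNA, and a median correlation of 0.878 with the other libraries. The other, after serotonin (replicate 2), had a median correlation of 0.910 and 36.3% of its counts from mitochondrial genes of any kind, against 17.9% to 24.6% in the 6 others, while its mitochondrial ribosomal RNA, at 9.94%, was within their range. The 6 others had median correlations of 0.947 to 0.960 and 7.37% to 15.4% mitochondrial ribosomal RNA. The 7 HEK293 markers checked were all detected, with the filament gene VIM at 300 to 456 CPM. Markers of blood summed to at most 0.427 CPM in a HTR1E-high library and 0.576 CPM in a HTR1E-low library. Those of hepatocytes summed to at most 0.985 and 2.88 CPM, and those of endothelium to at most 1.504 and 2.30 CPM.

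Of the 39 HOX genes, 35 passed the filter on low counts and were tested among 17144 genes. The 4 others, HOXB1, HOXC5, HOXC12 and HOXD12, had at most 8 reads in any library. HOXB1, which patterns the hindbrain, had 0 reads in all 4 HTR1E-high libraries, and in the HTR1E-low libraries 3 and 4 reads after serotonin and 0 and 5 reads without ligand. A gene could pass the filter on the strength of 1 group, so counts over the 35 do not speak for all 39.

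All 4 clusters were transcribed. The level per length, in RPKM (normalised CPM divided by the exon length in kilobases), was highest for HOXD9 in both sets, at 67.3 ± 13.8 RPKM in the HTR1E-high libraries and 123 ± 81.9 RPKM in the HTR1E-low libraries (SD, n = 4 each). HOXD10 came next in the HTR1E-high libraries at 39.1 ± 2.40 RPKM, and had 60.9 ± 5.92 RPKM in the HTR1E-low libraries. HOXD9 and HOXD10 are posterior genes that act in the limb. These means pool both treatments, and the rank of HOXD9 in the HTR1E-low libraries rests on serotonin, with 149 and 227 RPKM after serotonin and 45.3 and 71.9 RPKM without ligand. Without ligand HOXD10 had 64.8 and 52.1 RPKM there, so that the order of HOXD9 and HOXD10 differed between the 2 libraries. The mean of HOXA5, which ranked 2 in the HTR1E-low libraries, lay within 1 SD of that of HOXD9. HOXB5 ranked 24 of 39 in the HTR1E-high libraries at 3.62 ± 0.845 RPKM, and 6 of 39 in the HTR1E-low libraries at 25.7 ± 13.1 RPKM. HOXB8 ranked 25 in the HTR1E-high libraries and 13 in the HTR1E-low libraries. HOXB2, a hindbrain gene, ranked 5 in the HTR1E-high libraries and 15 in the HTR1E-low libraries. Its level was similar in both, at 15.2 ± 1.06 and 13.5 ± 3.94 RPKM. HOXD1 had the lowest level per length of the 35 tested genes in both sets, at 0.550 ± 0.290 RPKM in the HTR1E-high libraries and 1.05 ± 0.407 RPKM in the HTR1E-low libraries.

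Summed over the 39 genes, TMM-normalised HOX counts came to 883 and 721 CPM in the HTR1E-high libraries after serotonin, against 1601 and 1975 CPM in the HTR1E-low libraries. Without ligand the sums were 840.0 and 817 CPM in the HTR1E-high libraries, against 1235 and 1246 CPM in the HTR1E-low libraries. Every HTR1E-high library lay below every HTR1E-low library. Levels below are TMM-normalised CPM too, and in such bulk libraries fewer expressing cells and less RNA per cell cannot be told apart. Central genes (numbers 4 to 8) made up 20.2% to 21.1% of the HOX sum in the HTR1E-high libraries and 30.5% to 35.1% in the HTR1E-low libraries. Posterior genes (9 to 13) made up 58.5% to 61.5% in the HTR1E-high libraries and 48.8% to 54.3% in the HTR1E-low libraries. Anterior genes (1 to 3) made up 18.3% to 20.4% and 15.2% to 18%. These sums are a description and were not tested.

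**Figure D1:**
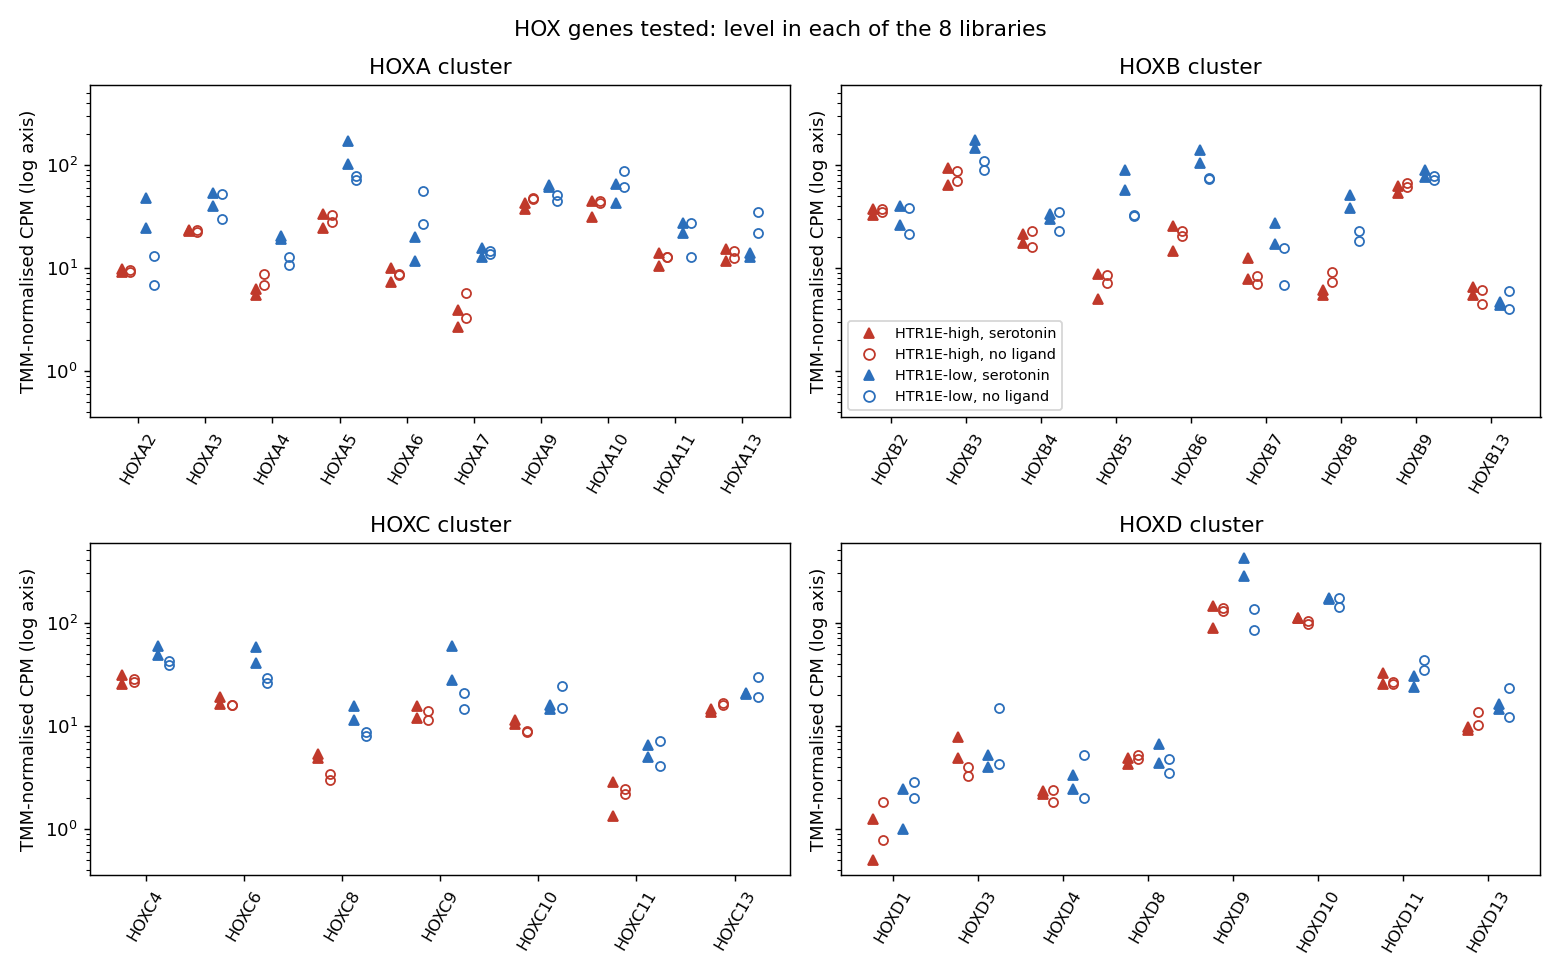
TMM-normalised CPM (log axis) of 34 of the 35 tested HOX genes in each of the 8 libraries, 1 panel per cluster, genes in order of their number; red marks are HTR1E-high libraries, blue HTR1E-low, filled triangles serotonin and open circles no ligand. HOXB5, HOXB6, HOXB8 and HOXA5 show a clear gap between the red and the blue marks, while HOXB2, HOXB13 and HOXD8 overlap.

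After serotonin, 11 of 35 tested HOX genes were lower in HTR1E-high than in HTR1E-low libraries at an adjusted p under 0.05, and 0 were higher (edgeR quasi-likelihood test, Benjamini-Hochberg over all genes). Of all 17144 genes tested, 2.92% were lower and 2.33% higher by the same rule. Without ligand, 5 of 35 were lower and 0 higher, against 0.904% lower and 1.52% higher of all genes. Leaving out 1 library moved the first count to between 3 and 20 and the second to between 0 and 10. The 0 came without either HTR1E-high no-ligand library, and the 20 and the 10 came without an HTR1E-low no-ligand library, when 10.4% and 8.47% of all genes were lower. The members' median log2 fold change, HTR1E-high over HTR1E-low, was -0.92 after serotonin and -0.68 without ligand, while the median over all genes was 0.02 and 0.03. HOXA7, HOXB5, HOXB6 and HOXB8 passed in both comparisons, which is 4 of the 11 and 4 of the 5. The share of all genes lower in both was not counted. The comparisons share no library, but they come from the same fit with a shared spread, so they are not independent. All 4 genes that passed in both, and 9 of the 12 genes called in at least 1 comparison, are central, with numbers 4 to 8. In 17 of 35 genes all 4 HTR1E-high libraries lay below all 4 HTR1E-low libraries, and in 0 genes above, against 7.62% and 9.96% of all genes.

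**Figure D2:**
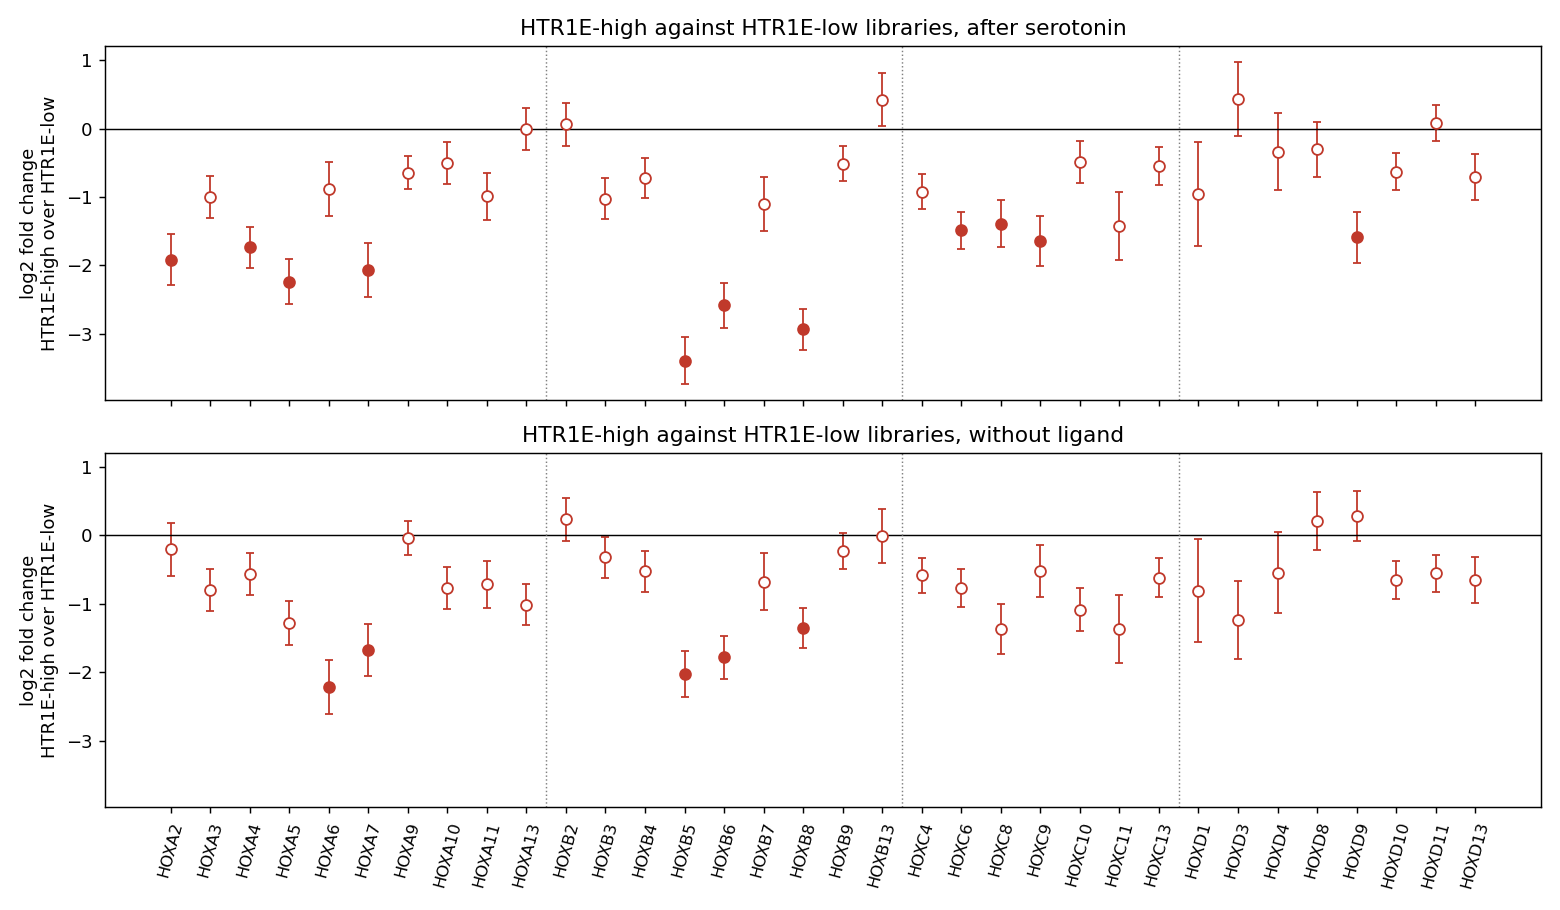
Log2 fold change, HTR1E-high over HTR1E-low, for 34 of the 35 tested HOX genes after serotonin (top) and without ligand (bottom), in cluster order, with bars of 1 SE; filled points have an adjusted p under 0.05. The 11 filled points at the top and the 5 at the bottom are all below 0, and the lowest at the top are HOXB5 and HOXB8.

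HOXB5, HOXB6 and HOXB8, in the middle of the HOXB cluster, were the members furthest below after serotonin, and all 3 were also lower without ligand. After serotonin HOXB5 stood at 8.67 and 5.01 CPM in the HTR1E-high libraries, against 56.9 and 88.8 CPM in the HTR1E-low libraries. Without ligand HOXB5 stood at 8.65 and 7.19 CPM in the HTR1E-high libraries, against 32.8 and 31.7 CPM in the HTR1E-low libraries. HOXB5, which acts in the development of the gut's nerve cells, was lower in all 4 HTR1E-high libraries than in any HTR1E-low library. Its log2 fold change was -3.39 ± 0.35 (SE, adjusted p = 0.000649) after serotonin and -2.02 ± 0.34 (SE, adjusted p = 0.0116) without ligand, from edgeR's quasi-likelihood test.

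After serotonin HOXB6 stood at 25.6 and 14.5 CPM in the HTR1E-high libraries, against 104 and 138 CPM in the HTR1E-low libraries. Without ligand HOXB6 stood at 22.6 and 20.5 CPM in the HTR1E-high libraries, against 74.9 and 73.6 CPM in the HTR1E-low libraries. The 2 sets did not overlap for HOXB6 either. The log2 fold change came to -2.58 ± 0.33 (SE, adjusted p = 0.00217) after serotonin and -1.78 ± 0.32 (SE, adjusted p = 0.0170) without ligand. HOXB6 shares 16.6% of its exon length with HOXB3 on the same strand, and reads in such stretches are not counted for either gene, whereas HOXB5 and HOXB8 share none. After serotonin HOXB8 stood at 6.07 and 5.51 CPM in the HTR1E-high libraries, against 38.1 and 50.9 CPM in the HTR1E-low libraries. Without ligand HOXB8 stood at 9.18 and 7.29 CPM in the HTR1E-high libraries, against 18.4 and 23.0 CPM in the HTR1E-low libraries. HOXB8, whose loss in mice causes overgrooming, was again lower in each HTR1E-high library than in any HTR1E-low one. The fitted log2 fold change was -2.93 ± 0.30 (SE, adjusted p = 0.000649) after serotonin and -1.36 ± 0.29 (SE, adjusted p = 0.0362) without ligand. The serotonin calls of HOXB5, HOXB6 and HOXB8 held with each library left out in turn, with an adjusted p of at most 0.0134, 0.0452 and 0.0157. Without ligand the calls of all 3 were lost when either HTR1E-high no-ligand library was left out, and HOXB8 was lost in 5 of 8 such fits.

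**Figure D3:**
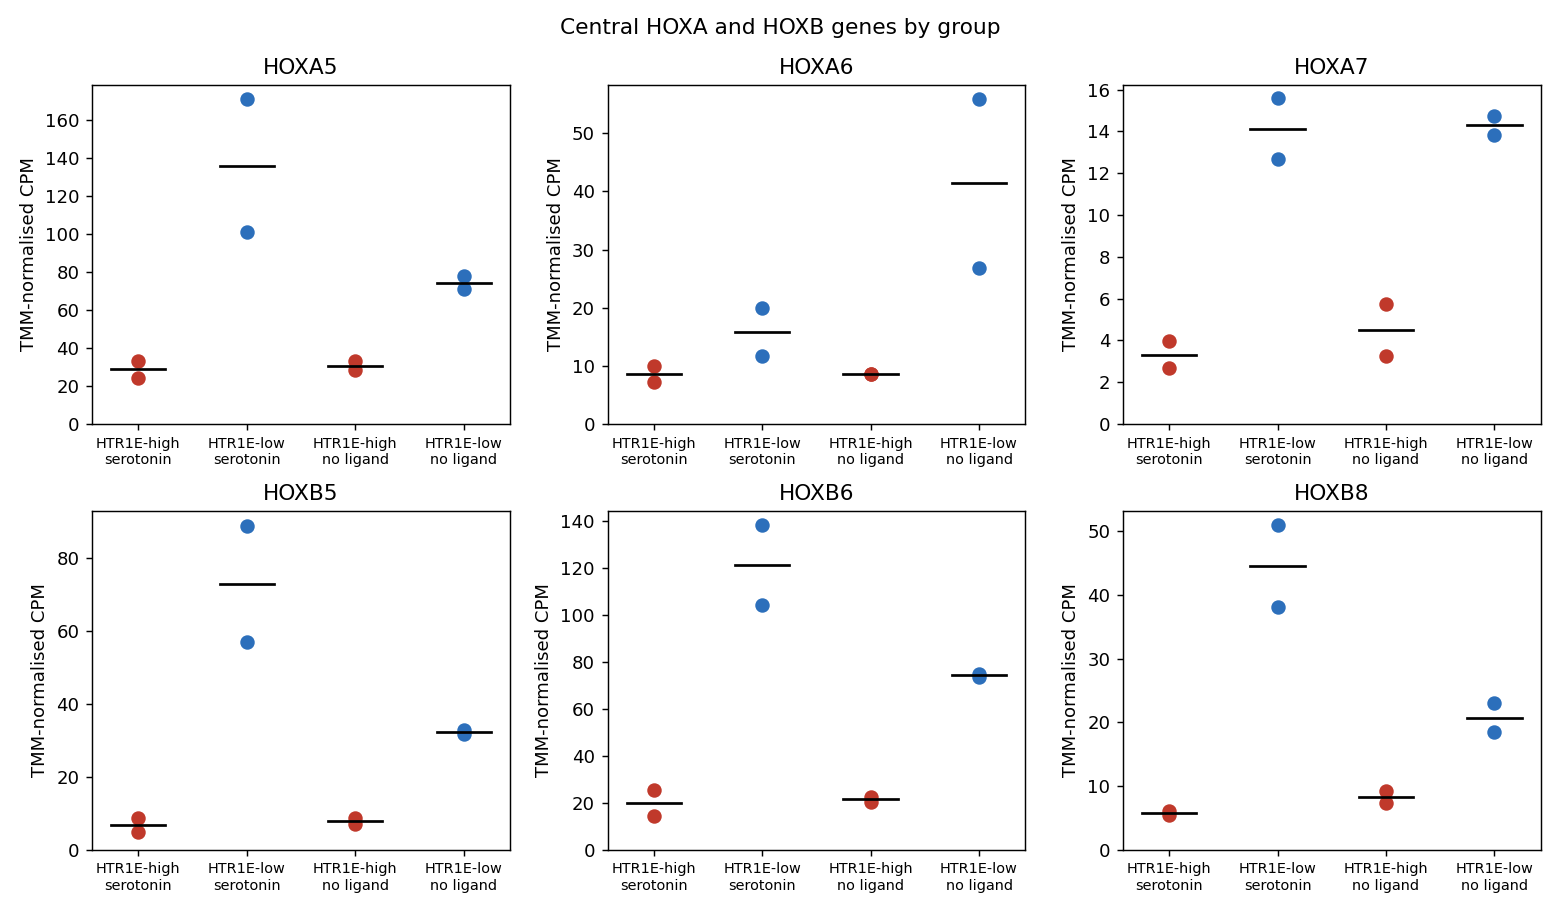
TMM-normalised CPM of 6 central HOX genes in each library, 2 points per group and a bar at their mean; red is HTR1E-high and blue HTR1E-low. HOXA5, HOXA7, HOXB5, HOXB6 and HOXB8 keep a gap between red and blue in both treatments, and the widest for HOXB5 is after serotonin, with 8.67 and 5.01 CPM in HTR1E-high libraries against 56.9 and 88.8 CPM in HTR1E-low libraries.

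The other HOXB members were not called. HOXB7 had a log2 fold change of -1.10 after serotonin (adjusted p = 0.121) and -0.68 without ligand (adjusted p = 0.397), although it sits between HOXB6 and HOXB8. After serotonin HOXB7 stood at 12.5 and 7.85 CPM in the HTR1E-high libraries, against 17.0 and 27.1 CPM in the HTR1E-low libraries. Without ligand HOXB7 stood at 6.94 and 8.37 CPM in the HTR1E-high libraries, against 6.91 and 15.6 CPM in the HTR1E-low libraries. Its sets overlapped. HOXB3, an anterior gene, had -1.02 after serotonin (adjusted p = 0.0717) and -0.32 without ligand (adjusted p = 0.595). HOXB4, used to expand blood stem cells, had -0.72 (adjusted p = 0.166) and -0.53 (adjusted p = 0.371). HOXB9 had -0.51 and -0.23, with adjusted p = 0.243 and 0.665, and its sets did not overlap. HOXB2 and the prostate gene HOXB13, at the far end of the cluster, had log2 fold changes of 0.07 and 0.43 after serotonin and 0.23 and -0.01 without ligand, all with an adjusted p of at least 0.537.

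The clusters also hold microRNA genes, among them those of the miR-196 family, which is known to direct cleavage of HOXB8 mRNA. The mature sequences from RefSeq (GRCh38.p14) are shown because HOXB8 is among the members furthest below; capitals mark the seed, bases 2 to 8, which is the same in both.
hsa-miR-196a-5p: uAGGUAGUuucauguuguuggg
hsa-miR-196b-5p: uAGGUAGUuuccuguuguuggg
miR-196a-5p comes from MIR196A1 at chr17:48632532-48632553 (minus strand) and MIR196A2 at chr12:53991762-53991783 (plus strand), and miR-196b-5p from MIR196B at chr7:27169528-27169549 (minus strand). The match to the seed, ACTACCT, occurs in the 3′ UTR of 9 of 39 HOX genes (23.1%) and of 7.10% of 18998 other coding genes. HOXA7 holds 4 matches, HOXA9 and HOXC8 hold 2 each, and HOXA5, HOXB6, HOXB7 and HOXB13 are among those with 1. HOXB8 holds 0, and its known site was then looked for by pairing over the whole miRNA, a search added after the seed count was seen. The best site pairs with 21 of 22 bases of miR-196a-5p, counting A:U and G:C pairs alone. It lies in the HOXB8 3′ UTR at chr17:48612770-48612791 (GRCh38, minus strand). Capitals mark paired bases, and the lower-case g faces the U at position 5 of the miRNA, a G:U pair that was not counted.
HOXB8 site: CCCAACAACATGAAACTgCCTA
Sites with at least 18 paired bases, counted in this way, occurred in 1 HOX gene and in 1 of 18998 other genes. The polyA libraries do not measure mature miRNAs, and a match is a description of sequence only.

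In the HOXA cluster HOXA5 and HOXA7 were lower, HOXA6 was lower without ligand, and HOXA2 and HOXA4 after serotonin. After serotonin HOXA5 stood at 33.1 and 24.4 CPM in the HTR1E-high libraries, against 101 and 171 CPM in the HTR1E-low libraries. Without ligand HOXA5 stood at 28.2 and 32.9 CPM in the HTR1E-high libraries, against 70.8 and 77.6 CPM in the HTR1E-low libraries. HOXA5, which mice need for lung and airway development, had 2 separate sets in both treatments. Its log2 fold change was -2.24 ± 0.33 (SE, adjusted p = 0.00475) after serotonin and -1.28 ± 0.32 (SE, adjusted p = 0.0623) without ligand, the last not past the threshold. After serotonin HOXA7 stood at 3.96 and 2.67 CPM in the HTR1E-high libraries, against 12.7 and 15.6 CPM in the HTR1E-low libraries. Without ligand HOXA7 stood at 5.77 and 3.25 CPM in the HTR1E-high libraries, against 13.8 and 14.7 CPM in the HTR1E-low libraries. HOXA7, which rises with HOXA9 in leukaemias with KMT2A fusions, showed no overlap between the sets. The log2 fold change came to -2.07 ± 0.39 (SE, adjusted p = 0.0158) after serotonin and -1.67 ± 0.38 (SE, adjusted p = 0.0448) without ligand. The call without ligand held in 2 of 8 fits that left out 1 library.

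After serotonin HOXA6 stood at 7.31 and 10.02 CPM in the HTR1E-high libraries, against 19.9 and 11.7 CPM in the HTR1E-low libraries. Without ligand HOXA6 stood at 8.54 and 8.67 CPM in the HTR1E-high libraries, against 55.9 and 26.9 CPM in the HTR1E-low libraries. The highest HOXA6 value, 55.9 CPM, came from the HTR1E-low library without ligand that stood apart. The sets did not overlap, though after serotonin they came close. The log2 fold change of HOXA6 was -0.88 ± 0.39 (SE, adjusted p = 0.197) after serotonin and -2.21 ± 0.40 (SE, adjusted p = 0.0171) without ligand, and the first minus the second was 1.33 with adjusted p = 0.318. The call without ligand was lost when either HTR1E-high no-ligand library was left out. After serotonin HOXA2 stood at 9.79 and 9.19 CPM in the HTR1E-high libraries, against 24.4 and 47.7 CPM in the HTR1E-low libraries. Without ligand HOXA2 stood at 9.18 and 9.65 CPM in the HTR1E-high libraries, against 6.91 and 13.2 CPM in the HTR1E-low libraries. HOXA2, which patterns the second branchial arch and the ear, overlapped between the sets, and its highest value came from the HTR1E-low serotonin library that stood apart. The fitted log2 fold change was -1.92 ± 0.37 (SE, adjusted p = 0.0179) after serotonin and -0.21 ± 0.39 (SE, adjusted p = 0.803) without ligand. The HTR1E-low serotonin library that stood apart also held the highest value of every other HOX gene called after serotonin.

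After serotonin HOXA4 stood at 6.32 and 5.51 CPM in the HTR1E-high libraries, against 19.3 and 20.3 CPM in the HTR1E-low libraries. Without ligand HOXA4 stood at 8.75 and 6.79 CPM in the HTR1E-high libraries, against 12.7 and 10.8 CPM in the HTR1E-low libraries. HOXA4 was lower in every HTR1E-high library. Its log2 fold change was -1.73 ± 0.30 (SE, adjusted p = 0.0114) after serotonin and -0.57 ± 0.31 (SE, adjusted p = 0.338) without ligand, and 31.0% of its exon length is shared with another gene on the same strand. The serotonin calls of HOXA2, HOXA4, HOXA5 and HOXA7 were lost when replicate 2 of either serotonin group was left out, and those of HOXA2, HOXA4 and HOXA7 also without HTR1E-high serotonin replicate 1. The HOXA genes described next did not pass in either comparison. HOXA3, needed for the thymus and parathyroid in mice, had -1.0002 after serotonin and -0.80 without ligand, and its sets did not overlap. Among the posterior genes the log2 fold change was -0.64 and -0.04 for HOXA9, -0.50 and -0.77 for HOXA10, -0.99 and -0.72 for HOXA11, and -0.0049 and -1.01 for HOXA13. HOXA11 takes part in kidney induction in mice, HOXA10 in the uterus, and HOXA13 in the digits.

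Promoter windows of 250 bases before the RefSeq start (GRCh38.p14) were at hand for 20 HOX symbols, in 27 windows, among them 4 of the 12 called genes. These 4 genes on chromosome 7 are shown because they are called members of 1 cluster. They were searched on both strands for 7 motifs, and the CCAAT box (CCAAT, or ATTGG on the other strand) is in capitals since all 4 windows held it, a choice made after the matches were seen.
HOXA2, chr7:27102684-27102933, minus strand: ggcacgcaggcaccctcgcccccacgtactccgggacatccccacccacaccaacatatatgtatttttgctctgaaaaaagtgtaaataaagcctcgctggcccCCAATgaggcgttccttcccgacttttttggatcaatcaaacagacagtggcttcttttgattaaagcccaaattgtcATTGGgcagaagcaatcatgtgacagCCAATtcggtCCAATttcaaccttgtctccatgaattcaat
HOXA4, chr7:27130758-27131007, minus strand: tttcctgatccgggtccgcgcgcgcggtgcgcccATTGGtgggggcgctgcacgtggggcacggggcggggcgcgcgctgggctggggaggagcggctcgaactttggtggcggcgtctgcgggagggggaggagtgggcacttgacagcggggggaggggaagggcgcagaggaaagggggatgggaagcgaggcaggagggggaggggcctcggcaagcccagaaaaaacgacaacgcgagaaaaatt
HOXA6, chr7:27147775-27148024, minus strand: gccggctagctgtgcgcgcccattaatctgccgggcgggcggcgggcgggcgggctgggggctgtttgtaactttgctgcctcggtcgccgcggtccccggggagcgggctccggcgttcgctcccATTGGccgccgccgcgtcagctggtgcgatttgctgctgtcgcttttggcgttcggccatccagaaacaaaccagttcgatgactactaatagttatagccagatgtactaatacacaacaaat
HOXA7, chr7:27156676-27156925, minus strand: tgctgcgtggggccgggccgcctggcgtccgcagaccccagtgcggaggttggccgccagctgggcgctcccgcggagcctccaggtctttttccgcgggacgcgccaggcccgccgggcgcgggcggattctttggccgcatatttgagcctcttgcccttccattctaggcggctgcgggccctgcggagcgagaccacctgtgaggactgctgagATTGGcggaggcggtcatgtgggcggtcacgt
CCAAT occurred in 18 of 27 HOX windows (66.7%) and in 32.0% of all 35116 windows. The homeodomain core TAAT occurred in 20 of 27 (74.1%), against 47.4% of all. The HOX-PBX motif TGATTNAT occurred in 2 of 27 (7.41%), against 2.48%, and TATAAA in 5 of 27 (18.5%), against 10.7%. The cAMP response element TGACGTCA, the AP-1 motif TGANTCA and the retinoic acid receptor motif AGGTCA occurred in 0 of 27 windows, against 1.65%, 6.57% and 12.1% of all. Of the 27 windows several belong to alternative starts of HOXA3, and HOXC4 and HOXC5 share 1, so the windows are not independent, and the counts describe these letters alone.

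All 7 tested HOXC genes had negative log2 fold changes in both comparisons, and HOXC6, HOXC8 and HOXC9 passed after serotonin. After serotonin HOXC6 stood at 19.0 and 16.2 CPM in the HTR1E-high libraries, against 40.7 and 58.3 CPM in the HTR1E-low libraries. Without ligand HOXC6 stood at 15.8 and 16.0 CPM in the HTR1E-high libraries, against 28.8 and 25.9 CPM in the HTR1E-low libraries. HOXC6, used as a urinary marker of prostate cancer, had a log2 fold change of -1.49 ± 0.27 (SE, adjusted p = 0.0136) after serotonin and -0.77 ± 0.28 (SE, adjusted p = 0.169) without ligand, with no overlap between the sets. After serotonin HOXC8 stood at 4.83 and 5.35 CPM in the HTR1E-high libraries, against 11.4 and 15.4 CPM in the HTR1E-low libraries. Without ligand HOXC8 stood at 3.42 and 2.95 CPM in the HTR1E-high libraries, against 8.64 and 8.03 CPM in the HTR1E-low libraries. HOXC8, which specifies motor neuron pools of the forelimb in mice, did not overlap either. The log2 fold change came to -1.39 ± 0.34 (SE, adjusted p = 0.0425) after serotonin and -1.37 ± 0.37 (SE, adjusted p = 0.0786) without ligand.

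After serotonin HOXC9 stood at 15.6 and 11.9 CPM in the HTR1E-high libraries, against 27.6 and 59.0 CPM in the HTR1E-low libraries. Without ligand HOXC9 stood at 11.3 and 13.9 CPM in the HTR1E-high libraries, against 14.4 and 20.6 CPM in the HTR1E-low libraries. HOXC9, which marks the thoracic spinal cord in mice, overlapped between the sets. The fitted log2 fold change was -1.64 ± 0.37 (SE, adjusted p = 0.0303) after serotonin and -0.52 ± 0.38 (SE, adjusted p = 0.482) without ligand. HOXC8 and HOXC9 kept the serotonin call in 3 of 8 fits that left out 1 library and HOXC6 in 5 of 8. HOXC4, HOXC10, HOXC11 and HOXC13 did not pass, with log2 fold changes of -0.92, -0.49, -1.42 and -0.54 after serotonin and -0.58, -1.09, -1.37 and -0.62 without ligand. In each of these 4 genes all HTR1E-high libraries were below all HTR1E-low libraries. HOXC13 is known for its part in hair and nails.

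In the HOXD cluster 1 of 8 tested genes passed. After serotonin HOXD9 stood at 146 and 88.2 CPM in the HTR1E-high libraries, against 279.5 and 424 CPM in the HTR1E-low libraries. Without ligand HOXD9 stood at 130.3 and 139 CPM in the HTR1E-high libraries, against 84.7 and 134 CPM in the HTR1E-low libraries. HOXD9 was high in both HTR1E-low serotonin libraries and in neither HTR1E-low library without ligand, where its values overlapped those of the HTR1E-high libraries. Its log2 fold change was -1.59 ± 0.37 (SE, adjusted p = 0.0351) after serotonin and 0.29 ± 0.36 (SE, adjusted p = 0.703) without ligand. The serotonin call held in 3 of 8 fits that left out 1 library. After serotonin HOXD10 stood at 110.1 and 111 CPM in the HTR1E-high libraries, against 169.5 and 172 CPM in the HTR1E-low libraries. Without ligand HOXD10 stood at 103 and 97.1 CPM in the HTR1E-high libraries, against 174 and 140.3 CPM in the HTR1E-low libraries. HOXD10, a known target of miR-10b, did not overlap between the sets, yet its log2 fold change of -0.63 after serotonin (adjusted p = 0.185) and -0.65 without ligand (adjusted p = 0.227) missed the threshold. HOXD11, a partner of HOXA11 in the mouse kidney, had 0.09 and -0.55, and HOXD13, mutated in synpolydactyly, -0.71 and -0.65. HOXD8 had -0.30 and 0.21, and HOXD1 -0.96 and -0.81. HOXD3 and HOXD4, at 0.43 and -0.34 after serotonin and -1.23 and -0.54 without ligand, share 62.2% and 80.5% of their exon length with other genes on the same strand, so that their counts cover only part of their transcripts.

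By position along the clusters, 8 of 14 tested central genes were lower after serotonin, 1 of 7 anterior and 2 of 14 posterior. Without ligand 5 of 14 central genes were lower, 0 of 7 anterior and 0 of 14 posterior. The median log2 fold change was -1.44 for central, -0.96 for anterior and -0.58 for posterior genes after serotonin, and -1.03, -0.80 and -0.63 without ligand. The difference between these classes was not tested.

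Serotonin moved no HOX gene past the threshold in edgeR's test on all 8 libraries with the filter on low counts. In the HTR1E-high libraries 0 of 35 genes were called with edgeR and 0 with DESeq2, and 0% of all genes were called. By edgeR 0 of 35 had an unadjusted p under 0.05 there, against 0.362% of all genes. The log2 fold changes there, serotonin over no ligand, ran from -0.52 to 0.80 with a median of -0.02. The fit shares its estimate of the spread of a gene over all groups, though replicate agreement differed between them. Replicates correlated at 0.972 after serotonin and 0.990 without ligand in the HTR1E-high libraries, against 0.965 and 0.913 in the HTR1E-low libraries. The SE and p-values of either response thus do not reflect the spread of its own set alone. In the HTR1E-low libraries 0 of 35 were called with edgeR, against 0.0117% of all genes, and 12 had an unadjusted p under 0.05, against 26.5% of all genes. DESeq2 called 6 there, 5 higher and 1 lower, namely HOXA2, HOXB5, HOXB8, HOXC9 and HOXD9 and the lower HOXA6, and it called 8.57% of all genes. The largest values by edgeR were 1.73 ± 0.38 (SE, adjusted p = 0.0650) for HOXA2, 1.67 ± 0.37 (SE, adjusted p = 0.0652) for HOXD9 and -1.33 ± 0.39 (SE, adjusted p = 0.0854) for HOXA6. Other edgeR fits did call HOX genes in this comparison, 6 with no filter on low counts, 5 without HTR1E-low serotonin replicate 1 and 9 without HTR1E-low no-ligand replicate 2, when 5.14%, 5.75% and 26.3% of all genes were called. Each of the 2 groups compared holds 1 of the libraries that stood apart. Without both of them 1 library is set against 1, with a spread borrowed from the HTR1E-high groups, so that fit gives no replicate check of this response.

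**Figure D4:**
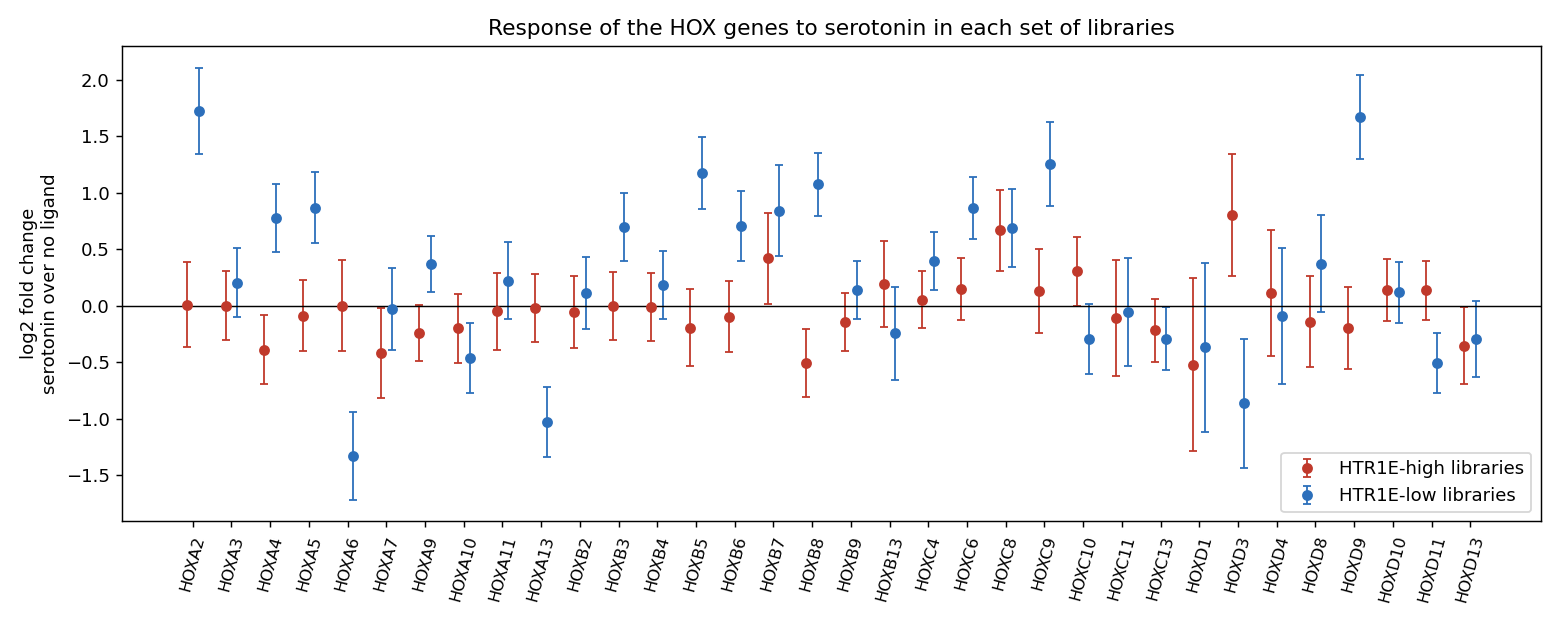
Log2 fold change, serotonin over no ligand, of 34 of the 35 tested HOX genes in the HTR1E-high libraries (red) and the HTR1E-low libraries (blue), with bars of 1 SE. The red points run from -0.52 to 0.80 and the blue from -1.33 to 1.73, with HOXA2 and HOXD9 highest in blue, and no point passed the threshold in edgeR.

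The difference between the serotonin responses, HTR1E-high minus HTR1E-low, was called for 0 of 35 HOX genes and 0% of all genes with edgeR, and 7 HOX genes had an unadjusted p under 0.05, against 15% of all genes. DESeq2 called 0 HOX genes and 0.251% of all genes. With no filter on low counts edgeR called 2, HOXA2 and HOXD9, against 1.6% of all genes, and without HTR1E-low no-ligand replicate 2 it called 6, against 18.9%. The lowest values were -1.87 ± 0.52 (SE, adjusted p = 0.302) for HOXD9, -1.71 ± 0.53 (SE, adjusted p = 0.302) for HOXA2 and -1.58 ± 0.41 (SE, adjusted p = 0.302) for HOXB8. HOXB8 had a response of -0.50 ± 0.30 in the HTR1E-high libraries and 1.08 ± 0.28 in the HTR1E-low libraries (log2, SE). Whether the gap between the 2 sets differed between the treatments thus depended on the fit, and no HOX gene was called for it in the fit to all 8 libraries with the filter. Averaged over both sets in the same fit of the groups, serotonin against no ligand gave 0 HOX calls with edgeR, against 0.00583% of all genes. DESeq2 gave 0 as well, against 0.0408%. By edgeR 8 HOX genes had an unadjusted p under 0.05, against 11.1% of all genes. An edgeR fit that used the treatment word alone, without the first letter, called 0 HOX genes and 0% of all genes.

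The comparisons between the sets were repeated without the 2 HTR1E-low libraries that stood apart, a choice made after the data were seen, which leaves 1 HTR1E-low library for each treatment. That lone library is assumed to vary like the other groups. After serotonin 18 HOX genes were then lower, against 5.44% of all genes, and without ligand 13, against 3.77%. HOXB5 had -3.03 (adjusted p = 4.74e-11) after serotonin and -2.02 (adjusted p = 7.80e-07) without ligand, and HOXB8 -2.72 (adjusted p = 2.03e-09) and -1.50 (adjusted p = 0.000174). HOXA5, not called without ligand over all libraries, had -1.36 (adjusted p = 9.55e-05) there. All 11 HOX genes called after serotonin over all libraries had smaller effects after serotonin in this fit. Among them HOXC9 had -1.003 against -1.64, HOXA2 -1.37 against -1.92, and HOXD9 -1.26 against -1.59. HOXA6 had -1.66 against -2.21 without ligand. Averaged over both treatments in the fit to all 8 libraries, 15 HOX genes were lower and 0 higher, against 4.09% of all genes lower, with HOXB5 at -2.71 (adjusted p = 8.39e-05), HOXB6 at -2.18 (adjusted p = 0.000237) and HOXB8 at -2.14 (adjusted p = 0.000160), all by edgeR. The part of mitochondrial RNA and depth in these values was not tested.

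**Figure D5:**
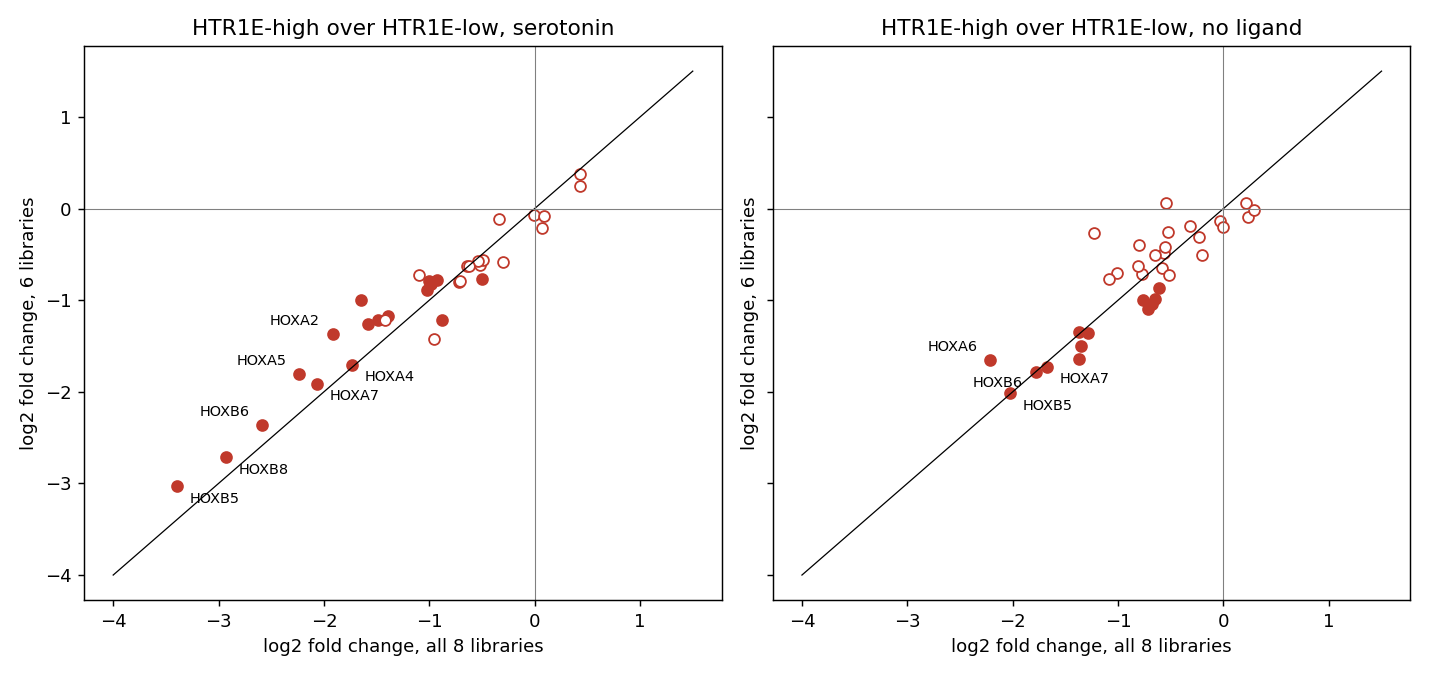
Log2 fold change, HTR1E-high over HTR1E-low, from all 8 libraries (x axis) and from the 6 left without the pair of HTR1E-low libraries that stood apart (y axis), after serotonin (left panel) and without ligand (right panel); each point is 1 of 34 HOX genes, the line marks equal values, and filled points have an adjusted p under 0.05 in the 6 libraries. HOXB5, HOXB6 and HOXB8 stay lowest after serotonin, and 18 points are filled at left and 13 at right.

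The lists of genes that act with the clusters are short, and against the 2.92% lower and 2.33% higher of all genes after serotonin their counts of 0 or 1 do not stand out. Of the noncoding transcripts of the clusters 14 of 17 were tested and 0 were called in either comparison, with a median log2 fold change of -0.96 after serotonin and -0.15 without ligand. Of the TALE cofactors 0 of 9 were called, with medians of -0.18 and -0.41. Of the Polycomb genes 0 of 25 were called, with medians of -0.09 and -0.01. Of 11 Trithorax and H3K27 demethylase genes 1 was lower after serotonin, KMT2B, a histone H3K4 methyltransferase. Medians of this list were -0.19 after serotonin and -0.59 without ligand. After serotonin KMT2B stood at 169.7 and 158 CPM in the HTR1E-high libraries, against 487 and 868 CPM in the HTR1E-low libraries. Without ligand KMT2B stood at 145 and 151 CPM in the HTR1E-high libraries, against 432 and 342 CPM in the HTR1E-low libraries. The sets did not overlap for KMT2B, and its log2 fold change was -2.05 ± 0.36 (SE, adjusted p = 0.0120) after serotonin and -1.39 ± 0.35 (SE, adjusted p = 0.0694) without ligand. The highest KMT2B value, 868 CPM, came from the HTR1E-low serotonin library that stood apart.

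Of 14 tested retinoic acid and CDX genes 1 was lower after serotonin, RARA, a retinoic acid receptor. Medians of this list were -0.39 after serotonin and 0.07 without ligand. After serotonin RARA stood at 30.6 and 22.9 CPM in the HTR1E-high libraries, against 58.3 and 109.6 CPM in the HTR1E-low libraries. Without ligand RARA stood at 25.5 and 21.0 CPM in the HTR1E-high libraries, against 29.9 and 34.7 CPM in the HTR1E-low libraries. The log2 fold change of RARA was -1.64 ± 0.33 (SE, adjusted p = 0.0207) after serotonin and -0.49 ± 0.33 (SE, adjusted p = 0.452) without ligand. The highest RARA value, 109.6 CPM, also came from the HTR1E-low serotonin library that stood apart. The calls of KMT2B and RARA were not followed in the fits that left out a library. CDX1 had 0 reads in all 8 libraries. Among 8 tested genes that flank the clusters 0 were called, with a median of 0.08 after serotonin and 0.11 without ligand. Of the ParaHox genes PDX1 alone was tested and was not called.

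Of the 7 HEK293 markers 1 was called after serotonin, the kidney gene PAX2, and 0 without ligand, and 4 of 7 had positive log2 fold changes after serotonin. The neurofilament gene NEFM, not called, had 1.81 (adjusted p = 0.0663) after serotonin and 2.51 (adjusted p = 0.0550) without ligand. The other neurofilament gene of the list, NEFL, went the other way, at -0.37 after serotonin and -0.45 without ligand, and was not called either. After serotonin PAX2 stood at 2.73 and 2.84 CPM in the HTR1E-high libraries, against 5.98 and 21.6 CPM in the HTR1E-low libraries. The log2 fold change of PAX2 was -2.29 ± 0.56 (SE, adjusted p = 0.0422), and the highest value was that of the HTR1E-low library that stood apart. The 7 HEK293 markers summed to 680.0 to 873 CPM in the HTR1E-high libraries and 471 to 674 CPM in the HTR1E-low libraries. The collagen gene COL1A1 was higher without ligand, at 28.3 and 31.6 CPM in the HTR1E-high libraries against 12.1 and 12.2 CPM in the HTR1E-low libraries, with a log2 fold change of 1.30 ± 0.30 (SE, adjusted p = 0.0487). After serotonin COL1A1 stood at 26.1 and 26.9 CPM in the HTR1E-high libraries, against 27.1 and 43.9 CPM in the HTR1E-low libraries. Its log2 fold change there was -0.42 ± 0.28 (SE, adjusted p = 0.385). The 5 fibroblast markers summed to 28.6 to 34.3 CPM in the HTR1E-high libraries and 12.7 to 46.4 CPM in the HTR1E-low libraries, and DCN stayed at or below 0.248 CPM. Their part in the HOX results was not tested.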

How the data were processed

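The deposited table holds raw counts per gene in 8 libraries. Per the file headers, the authors counted them with featureCounts 2.0.1 on GENCODE 28, reverse-stranded, in 1 table without pooling; pairs over 2 genes on 1 strand were left out. Per the submitters' processing notes the tools included cutadapt 3.4, STAR 2.7.8a and SAMtools 1.12, with build hg38. PolyA libraries were made with a stranded kit, per the labels' protocols.

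The letter whose 4 libraries held the most HTR1E defined the HTR1E-high set; replicate 1 is the name without the second letter and replicate 2 the name with it. The 4 groups (first letter by treatment) were fitted together with edgeR 4.0.16 (R 4.3.3): TMM, filterByExpr (minimum count 10), quasi-likelihood test, Benjamini-Hochberg over 17144 genes, adjusted p under 0.05. The code was tested on simulated data. The single values of 1 tested member are not reported here. Full statistics go to called genes, to list members that passed and to the values beside them. Alternatives were RLE factors, DESeq2 1.42.0, no low-count filter, a block, each library left out, a fit without the first letter, and unique exon lengths. RPKM used the table's gene lengths. The HOX members and gene lists were chosen with earlier results of these data known. The pairing search for miR-196, the motif put in capitals, the pair of libraries left out and the average over treatments were chosen after values were seen. Counting intervals and the limit of 3 reads cover counting error only.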

Additional observations from a re-analysis of the deposited data

Results flagged for a closer look

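Among 70 sets of 4 libraries (35 HOX genes in 2 treatments), 5 had a library whose gap to its nearest neighbour exceeded Dixon's 95% critical value for 4 libraries, as a share of the range. Chance flags about 1 in 20 sets whose values come from 1 normal population. Each set here joins 2 HTR1E-high and 2 HTR1E-low libraries, so that rate does not apply to them. All 5 flagged sets were of libraries without ligand, and in each the library that stood out was HTR1E-low. In HTR1E-low replicate 1 without ligand, HOXD3 stood at 14.97 CPM against 3.25 to 4.29 CPM in the other no-ligand libraries, HOXD4 at 5.18 CPM against 1.82 to 2.36 CPM, and HOXD9 at 84.7 CPM against 130 to 139 CPM. In HTR1E-low replicate 2 without ligand, HOXA11 stood at 27.1 CPM against 12.7 to 12.9 CPM, and HOXB7 at 15.6 CPM against 6.91 to 8.37 CPM. For HOXA11 and HOXB7 the other HTR1E-low library was the one with 43.9% mitochondrial ribosomal RNA. None of these 5 genes was called without ligand.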

How the results depend on the processing

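After serotonin 11 HOX genes were called and without ligand 5. Leaving out 1 library gave 3 to 20 calls after serotonin and 0 to 10 without ligand. Without ligand 0 were called when either HTR1E-high no-ligand library was left out, and 10 without HTR1E-low no-ligand replicate 2; after serotonin 3 were called without replicate 2 of either serotonin group and 4 without HTR1E-high serotonin replicate 1, against 20 and 18 without HTR1E-low no-ligand replicate 1 and 2. Calls over all genes moved the same way, with 0.215% or less of all genes lower in the fits that gave 3 or 4, and 10.4%, 9.91% and 8.47% in those that gave 20, 18 and 10. The cause was not tested. Leaving out both libraries that stood apart gave 18 calls after serotonin and 13 without ligand, and averaging over treatments gave 15. A replicate block paired libraries by the second letter of the name. It gave 3 calls without ligand and 9 after serotonin, with 0.519% and 1.58% of all genes lower. Same-lettered libraries deviated together with correlations of -0.52 to 0.15, so the letters are not taken to pair them. For the serotonin response in HTR1E-low libraries, 0 in edgeR, DESeq2 and no low-count filter each gave 6 calls, and leaving out 1 library 0 to 9; for the difference between the responses, no filter gave 2 and leaving out 1 library 0 to 6; for serotonin over all libraries leaving out 1 gave 0 to 4. The most in each (9, 6 and 4) came without HTR1E-low no-ligand replicate 2, when 26.3%, 18.9% and 8.96% of all genes were called; this leaves the library with 43.9% mitochondrial ribosomal RNA alone in its group. RLE factors gave 11 and 5 calls after serotonin and without ligand, with 3.09% and 0.922% of all genes lower. DESeq2 gave 13 and 6, with 5.44% and 2.36% of all genes lower, and no filter 11 and 6, with 3.32% and 1.21%. Across all single-gene values, 2688 alternatives kept direction or stayed uncalled on the same side of the threshold, 51 lost a call and 96 gained one. Only the genes called in the main fit, 11 after serotonin and 5 without ligand, could lose a call, each in 14 alternatives. The 2688 are thus mostly values uncalled in both fits, including some whose direction changed. Groups of 2 libraries, a spread shared by groups of unequal replicate agreement, and low counts (HOXD1 had 3 to 20 reads a library) limit what could be detected.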
